A study of Mus musculus with 6 samples.

Results

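Claudins are the membrane proteins that form the strands of tight junctions, and 10 of their genes in mouse pancreatic tumour organoids are described here: Cldn1, Cldn2, Cldn3, Cldn4, Cldn6, Cldn7, Cldn12, Cldn15, Cldn18 and Cldn23. They were taken by gene symbol in the GRCm38 annotation from tables of 54453 Ensembl genes, which hold 34 claudin symbols in all. RNA was sequenced from 3 organoid lines, T91, T113 and T118, each carrying either Scrib hairpin 5523 or a control hairpin against Renilla luciferase, a gene that mouse cells lack. All 6 libraries come from KPC tumours, as mouse models of ductal pancreatic cancer with engineered driver alleles are called. KPF/FC is the genotype on the labels, whose alleles no source used here lists. The donor of T91 was female (passage 10), and those of T118 (passage 11) and T113 (passage 13) were male. Each line and hairpin was sampled by 1 library, and Scrib was targeted with 1 hairpin sequence, so effects of losing Scrib and other effects of that hairpin cannot be told apart.

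A claudin strand closes the space between neighbouring epithelial cells, and the set of claudins in it decides which ions and how much water pass. Claudins 1, 3, 4 and 7 are usually counted as sealing or barrier claudins, whereas claudins 2 and 15 form pores for small cations. Their tails bind the ZO scaffold proteins under the membrane. Scrib encodes a scaffold of the basolateral polarity complex, which helps to set the border at which tight junctions form. Normal and malignant ductal epithelium of the pancreas is known for its sealing claudins, and claudins 3 and 4 are also receptors of the Clostridium perfringens enterotoxin.

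Libraries held between 24035559 and 36235773 estimated counts, of which the 10 claudins took between 0.0774% and 0.11%. Scrib stood at 31.6 ± 2.94 CPM (counts scaled for the size and composition of a library) with the Scrib hairpin, against 164 ± 11.1 CPM with the Renilla hairpin (SD, n = 3 each). All 8 ductal epithelial markers examined, such as Krt19 and Epcam, passed the low-count filter, and their summed level was 7568 to 10623 CPM with the Scrib hairpin and 8200 to 13234 CPM with the Renilla hairpin. Summed acinar markers reached at most 0.882 CPM, endocrine markers 1.46 CPM, endothelial markers 4.09 CPM and leukocyte markers 5.63 CPM, with Cpb1, Ptf1a, Ins1 and Ins2 at 0 in all libraries. The fibroblast markers, with Lum at 0, summed to 1.37 to 7.56 CPM with the Scrib hairpin and 1.11 to 1.70 CPM with the Renilla hairpin, and the highest value was that of the T91 Scrib library. In T91 the ratio between hairpins also moved with transcript length.

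Cldn7 and Cldn3 dominated, and together with Cldn2 and Cldn4 they made up between 88.3% and 93.9% of the claudin transcripts per length in each library. To compare genes, CPM was divided by the length of the merged exons in kilobases. On this scale Cldn7, whose protein also lies along the lateral membrane bound to EpCAM, stood at 175 ± 20.4 CPM per kb over the 6 libraries, with a range of 146 to 206. Cldn3 stood at 166 ± 19.0 CPM per kb. On this scale the neighbours in the order did not separate, since Cldn7 was above Cldn3 in 3 of 6 libraries. That depends on the length used. The merged exons of Cldn7 measure 1948 bases but its longest coding transcript 1335, against 1259 for Cldn3 by either measure. Division by the longest coding transcript therefore places Cldn7 higher relative to Cldn3. Without the division by length, Cldn2 ranked second in mean CPM, above Cldn3, and in the T91 Renilla library it was the highest of all at 293 CPM, against 285 CPM for Cldn7.

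The pore-forming Cldn2 followed with 66.0 ± 21.0 CPM per kb and the barrier gene Cldn4 with 59.7 ± 22.3 CPM per kb. Cldn3 exceeded Cldn2 in 6 of 6 libraries, whereas Cldn2 exceeded Cldn4 in 4 of 6. Cldn6, best known from embryonic epithelia, averaged 19.5 CPM per kb (range 9.03 to 41.3) and Cldn12, which is linked to paracellular calcium transport, 15.9 CPM per kb (13.7 to 17.0), and Cldn6 was the higher in 3 of 6 libraries. Cldn4 exceeded Cldn6, and Cldn12 exceeded Cldn23, in all 6.

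Cldn23 and Cldn15 were low, at 2.40 ± 1.02 and 1.27 ± 1.35 CPM per kb. Cldn18, whose isoforms mark stomach and lung epithelium, and Cldn1, the main barrier claudin of skin, were close to absent, at 0.07 ± 0.0433 and 0.0527 ± 0.061 CPM per kb. Cldn18 had 4, 5 and 9 counts in the Scrib libraries of T91, T113 and T118 and 7, 11 and 20 counts in the Renilla libraries. Cldn1 had 13, 1 and 4 counts in the Scrib libraries and 21, 0 and 3 in the Renilla libraries of the same lines, and its 0 in T113 allows up to 0.0807 CPM. These genes were the 2 of 10 that did not pass the low-count filter, so every test concerns the other 8.

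**Figure D1:**
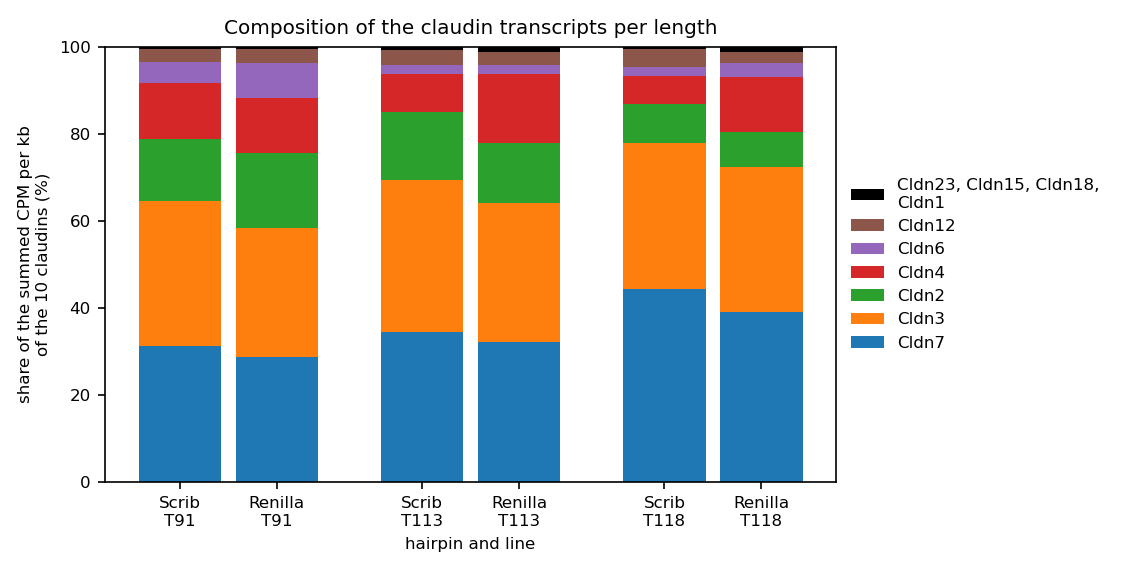
Share of each claudin in the summed CPM per kb of the 10 claudins (stacked bars, %), for the Scrib and then the Renilla library of each line. Cldn7 and Cldn3 fill the largest shares in every bar. The share of Cldn4 in the Scrib and Renilla libraries is 12.7% and 12.8% (T91), 8.81% and 15.9% (T113), and 6.29% and 12.7% (T118). Its group means, which ignore the pairing by line, are 9.27 ± 3.23% and 13.8 ± 1.82% (SD, n = 3 each).

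Scrib against Renilla hairpins asked whether losing the polarity scaffold alters the claudins. No claudin passed the test, but in T113 and T118 most of them stood below their control library, with Cldn4, Cldn6, Cldn15 and Cldn23 the lowest relative to it, while T91 was mixed. By edgeR's quasi-likelihood test with a term for the line, 0 of 8 claudins had an adjusted p under 0.05, where 0.00706% of the 14169 genes tested passed, namely Scrib alone. DESeq2 and limma-voom also called 0 of the 8, although Cldn6 was close to the threshold, with an adjusted p of 0.0522, by DESeq2's Wald test. At an unadjusted p under 0.05 there were 2 claudins, Cldn6 and Cldn15, both lower, where 5.07% of all genes were lower at that level. The log2 fold change was below 0 for 7 of the 8 and above 0 for 1, with a median of -0.34 against -0.0095 over all genes. In all 3 lines the Scrib library was the lower one for 3 claudins, Cldn2, Cldn6 and Cldn15, as it was for 15.5% of all genes. The CPM ranges of the hairpin groups overlapped for every one of the 8. These ranges ignore the pairing by line, and the share over all genes is not given here, so the overlap says nothing particular to claudins. In bulk RNA, fewer cells with a transcript and less of it per cell cannot be told apart.

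**Figure D2:**
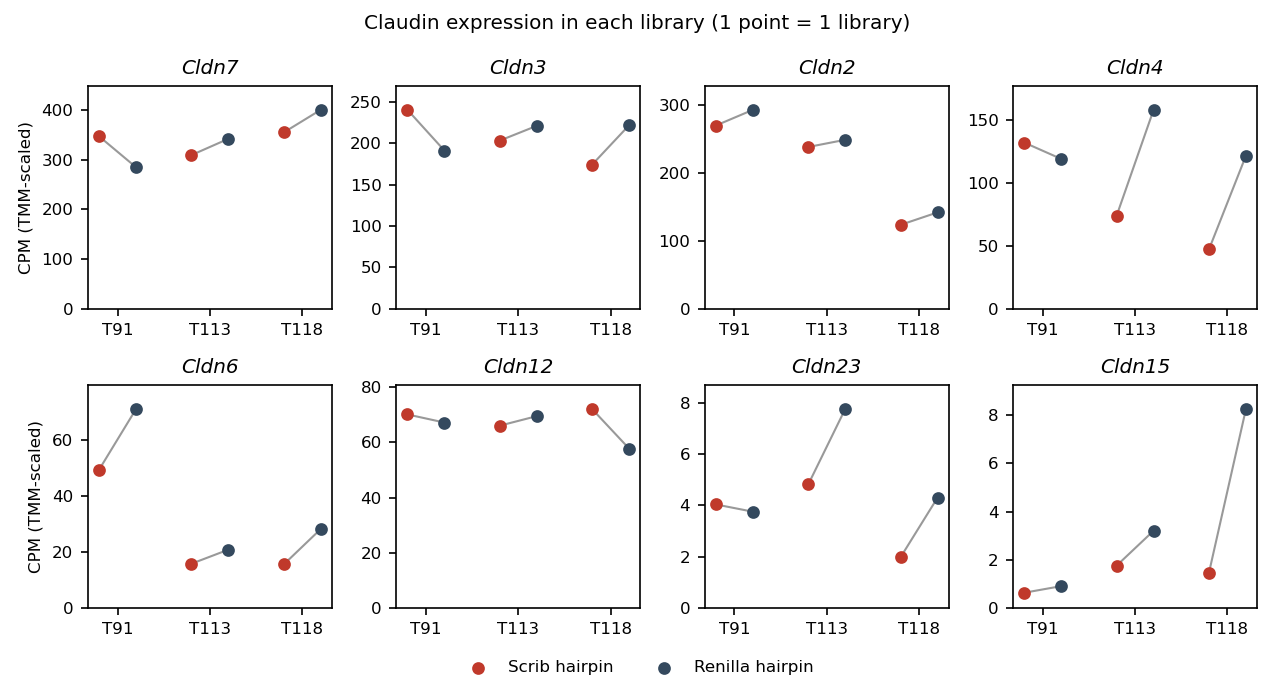
CPM of the 8 claudins that passed the low-count filter (vertical axes start at 0 and differ between panels), each line joined from its Scrib library (left, red) to its Renilla library (right, dark). Lines slope upward to the Renilla library in all 3 lines for Cldn2, Cldn6 and Cldn15, and for Cldn4 steeply in T113 and T118 only.

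The largest shift among the abundant claudins was that of Cldn4, and it appeared in T113 and T118. Cldn4 had 132, 73.8 and 47.0 CPM in the Scrib libraries of T91, T113 and T118, against 119, 158 and 121 CPM in the Renilla libraries. The T113 and T118 Scrib libraries lay below all 3 Renilla libraries, and the T91 Scrib library lay between Renilla values. Relative to the Renilla library of its line, the Scrib library held 46.8% in T113 and 38.8% in T118 but 111% in T91. Averaged over the lines, the log2 fold change was -0.77, standard error 0.32 (95% interval -1.59 to 0.04), and its adjusted p by edgeR's test was 0.77.

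Leaving out T91 changed that call. Without T91 the log2 fold change of Cldn4 was -1.23 and its adjusted p by the same edgeR test was 0.00202, in a fit of 4 libraries that called 150 genes in all. T91 was the line in which Cldn4 stood above its control, so this p depends on which line is dropped. Without T113 the adjusted p was 0.9999 and without T118 it was 0.956, by the same test. Over all alternatives tried, the adjusted p of Cldn4 ran from 0.00202 to 0.9999. The difference in response between lines itself was not tested, because each line had 1 library per hairpin.

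Cldn4 and Cldn3 are chromosomal neighbours that point away from each other, 39279 bases apart on chromosome 5. Cldn4 lies at chr5:134945119-134946934 on the minus strand and Cldn3 at chr5:134986214-134987472 on the plus strand (GRCm38), and each has a single annotated coding transcript. Their upstream sequences are shown because these adjacent sealing claudins had unequal ratios in T113 and T118. The windows are the 250 bases before the RefSeq start in GRCm38.p6, at chr5:134946935-134947184 (minus strand) for Cldn4 and chr5:134985964-134986213 (plus strand) for Cldn3. Capitals mark every match on either strand to any of 5 motifs. The TATA box was searched as TATAAA. The GC box was searched as GGGCGG and the E-box, which repressors such as Snail bind, as CAGGTG. The AP-1 site was searched as TGANTCA, where N is any base, and the grainyhead site as AACCGGTT.
Cldn4: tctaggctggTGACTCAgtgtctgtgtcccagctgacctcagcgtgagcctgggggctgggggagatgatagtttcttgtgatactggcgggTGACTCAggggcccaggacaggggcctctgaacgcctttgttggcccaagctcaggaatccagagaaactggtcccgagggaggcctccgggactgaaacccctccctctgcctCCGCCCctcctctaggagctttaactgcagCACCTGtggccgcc
Cldn3: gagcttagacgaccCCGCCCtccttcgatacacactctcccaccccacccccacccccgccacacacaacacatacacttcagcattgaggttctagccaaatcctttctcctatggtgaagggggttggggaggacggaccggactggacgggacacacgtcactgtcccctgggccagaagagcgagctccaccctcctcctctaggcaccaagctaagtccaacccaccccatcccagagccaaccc
The Cldn4 window held 2 AP-1 matches, starting 240 and 158 bases before the start, 1 GC box and 1 E-box. The Cldn3 window held 1 GC box. A link between motif matches and the ratios of these or other claudins was not tested.

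RefSeq windows were found for 9 of the 10 claudins, 13 windows in all because some genes have several starts. An AP-1 match occurred in 2 of the 13, those of Cldn4 and Cldn15, and in 6.75% of 32851 windows of this length over all genes. The E-box occurred in 3 windows of Cldn4, Cldn6 and Cldn7 and in 17.2% of all windows. The GC box occurred in 8 windows of claudins and in 32.7% of all. These 8 are not all separate sites, because overlapping Cldn12 windows hold the same GC box. The TATA box was found for Cldn2 alone (12.4% of all windows) and the grainyhead motif in none (0.116%). No motif was counted as overlapping another in the printed windows.

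Cldn3 had 240, 203 and 174 CPM in the Scrib libraries of T91, T113 and T118, against 191, 221 and 222 CPM in the Renilla libraries. Its T91 Scrib library was the highest of the 6 and its T118 Scrib library the lowest. The log2 ratio of Scrib to Renilla hairpin was 0.33 (T91), -0.12 (T113) and -0.35 (T118), and the average of -0.05 had a 95% interval from -0.39 to 0.29. An antisense gene, Wbscr25, overlaps 3.18% of the Cldn3 exon at 6 to 20 counts per library, so that reads of the pair may not have been told apart there.

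Cldn7 had 348, 310 and 355 CPM in the Scrib libraries of T91, T113 and T118, against 285, 342 and 401 CPM in the Renilla libraries. The groups overlapped almost fully. Its log2 ratios were 0.29 (T91), -0.15 (T113) and -0.17 (T118), with an average of -0.01 (95% interval -0.30 to 0.28).

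Among the 8 claudins, Cldn6 had the smallest p and stood below its control in each line. It had 49.4, 15.8 and 15.5 CPM in the Scrib libraries of T91, T113 and T118, against 71.1, 20.8 and 28.2 CPM in the Renilla libraries. Since T91 held more Cldn6 with either hairpin, the groups overlapped although each Scrib library was the lower of its pair. On average the log2 fold change was -0.59, standard error 0.12 (95% interval -0.88 to -0.30). Its unadjusted p of 0.00222 was the 50th smallest among all genes, and the adjusted p by edgeR's test was 0.553. Without the low-count filter the adjusted p of Cldn6 was 0.0414, in a fit that called 64 genes in all, and over all alternatives it ran from 0.0414 to 0.9999. Cldn6 and Cldn9 face each other tail to tail on chromosome 17 with 137 bases between them, and 0.408% of the 31-base words of Cldn6 also occur in Cldn9.

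Of the pore-forming claudins, Cldn15 had the larger average log2 fold change, but its difference from Cldn2 was not tested. Cldn2, a channel for sodium and water, had 270, 239 and 124 CPM in the Scrib libraries of T91, T113 and T118, against 293, 249 and 142 CPM in the Renilla libraries. Every Scrib library was slightly the lower, and the pairs lay closer together than the lines did. The average log2 fold change was -0.13, standard error 0.09 (95% interval -0.34 to 0.09).

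Cldn15, the other cation pore, had 0.63, 1.76 and 1.46 CPM in the Scrib libraries of T91, T113 and T118, against 0.904, 3.20 and 8.25 CPM in the Renilla libraries. These levels rest on 15, 54 and 40 counts with the Scrib hairpin and 27, 119 and 242 counts with the Renilla hairpin. The T118 Renilla library stood far above the other 5, and in T118 the Scrib library held 17.7% of it. Its log2 fold change was -1.37, standard error 0.42 (95% interval -2.38 to -0.36), an unadjusted p of 0.0156 and an adjusted p of 0.727 by edgeR's test. Without T118 the log2 fold change was -0.73, with an adjusted p of 0.888 by the same test.

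Cldn23, a less studied claudin found in gut epithelium, had 4.03, 4.81 and 1.97 CPM in the Scrib libraries of T91, T113 and T118, against 3.75, 7.75 and 4.30 CPM in the Renilla libraries. The T118 Scrib library was the lowest of the 6. Its log2 ratio was 0.10 (T91), -0.69 (T113) and -1.12 (T118), the same order as for Cldn4, and the average was -0.56 (95% interval -1.21 to 0.09).

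Cldn12 had 70.1, 66.1 and 72.1 CPM in the Scrib libraries of T91, T113 and T118, against 67.2, 69.5 and 57.7 CPM in the Renilla libraries. It was the most even claudin and the 1 with an average above 0, at 0.10 on the log2 scale (95% interval -0.16 to 0.36).

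**Figure D3:**
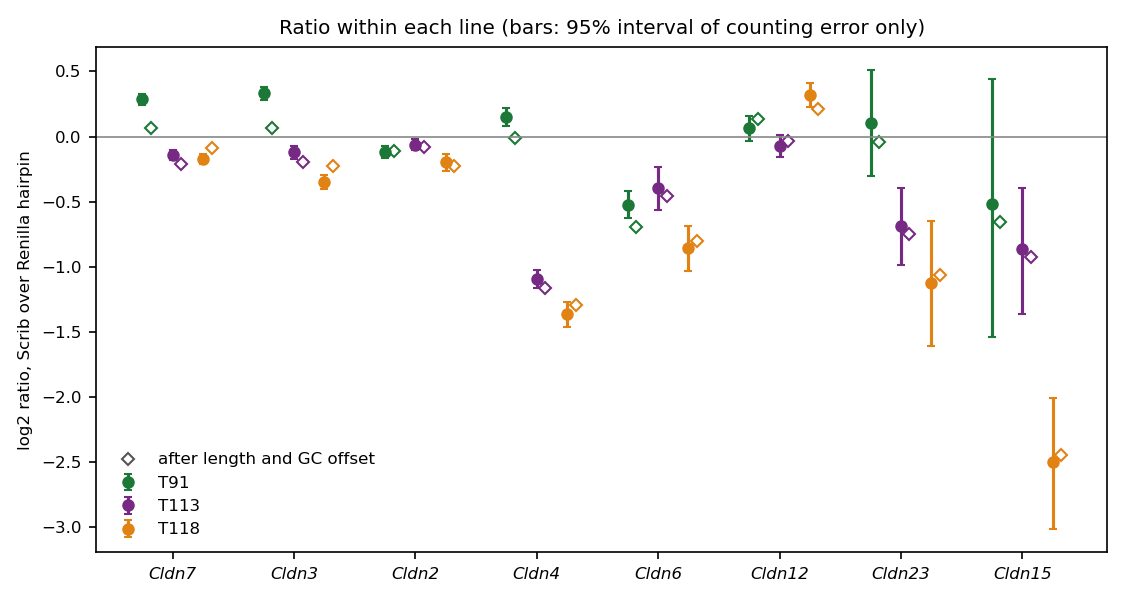
Log2 ratio of the Scrib to the Renilla library within each line (filled circles, with 95% intervals of counting error only) and the same ratio after an offset for transcript length and GC content (open diamonds), for the 8 claudins that passed the filter. In T91 the ratios of Cldn4 and Cldn23 are 0.15 and 0.10 without the offset and -0.01 and -0.04 with it, whereas in T113 and T118 their ratios stay below 0 either way.

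Summed over the claudins, the T91 Scrib library held 112% of the level per length of its Renilla library, the T113 Scrib library 84.2% and the T118 Scrib library 78.0%. The summed CPM of the 8 ductal epithelial markers went the same way, with 111% for T91 (10623 CPM in the Scrib and 9538 CPM in the Renilla library). It was 92.3% for T113 (7568 and 8200 CPM) and 76.7% for T118 (10152 and 13234 CPM). Of the 8 markers, 3 were lower in the Scrib library in T91, 5 in T113 and 7 in T118. Sox9 went against the sum in each line. It had 39.0, 17.9 and 34.9 CPM in the Scrib libraries of T91, T113 and T118, against 44.5, 15.8 and 30.6 CPM in the Renilla libraries. The part of these markers in the claudin ratios was not tested, nor was whether the claudins moved by more than the markers. The 10 claudins summed to 481 ± 81.6 CPM per kb with the Scrib hairpin and 529 ± 17.9 CPM per kb with the Renilla hairpin (SD, n = 3 each). The median log2 ratio of the 8 claudins was 0.08 (T91), -0.27 (T113) and -0.60 (T118), while that of all genes was within 0.003 of 0 in each line. Below 0 stood 3 of 8 claudins in T91, 8 of 8 in T113 and 7 of 8 in T118.

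Short transcripts had higher ratios than long ones in T91, and most claudin transcripts are short. Over genes with an average log2 CPM of at least 2, the median log2 ratio in T91 was 0.25 in the eighth with the shortest transcripts (up to 1388 bases) and -0.39 in the eighth with the longest (from 6231 bases). In T113 these medians were 0.04 and -0.04, and in T118 they were -0.07 and 0.11. By GC content, the medians of the lowest and highest eighths were -0.07 and 0.11 in T91 and -0.12 and 0.05 in T113. In T118 they were 0.18 and -0.09, so a trend was not confined to T91. The longest coding transcripts of Cldn3, Cldn7, Cldn6, Cldn4, Cldn23 and Cldn15 measure between 1259 and 1902 bases, against 3044 for Cldn2 and 3752 for Cldn12.

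With an offset for the trends of length and GC content in each library, chosen after seeing the data, the T91 ratio was 0.07 for Cldn3, 0.06 for Cldn7, -0.01 for Cldn4 and -0.04 for Cldn23. The T91 median of the 8 claudins was then -0.03 and their summed level 98.6% of the Renilla library. In T113 and T118 the medians with the offset were -0.33 and -0.51, and the ratios of Cldn4 were -1.16 and -1.29. The summed levels of the 8 claudins were then 81.0% (T113) and 82.4% (T118) of the Renilla library. With the offset 0 of 8 claudins were called over all lines, and 1, Cldn4 with an adjusted p of 0.0137 by edgeR's test, without T91, in a fit that called 84 genes in all.

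**Figure D4:**
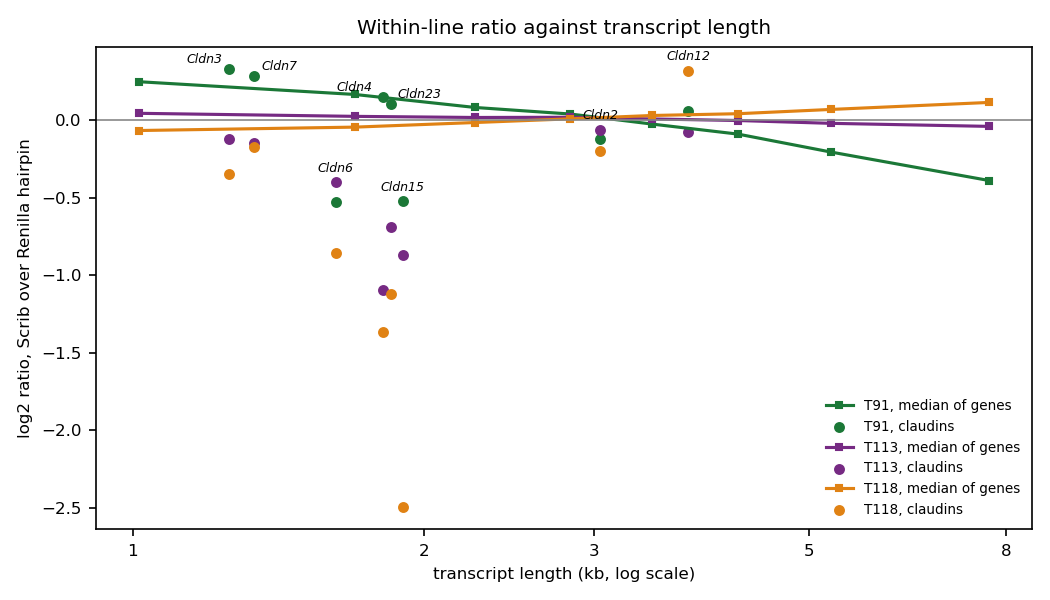
Log2 ratio of the Scrib to the Renilla library against transcript length (log axis), with squares and lines for the medians of genes with an average log2 CPM of at least 2 in eighths by length and circles for the 8 claudins, coloured by line. The T91 line runs from 0.25 at the short end to -0.39 at the long end, and the claudins with T91 circles above 0 include Cldn3, Cldn7, Cldn4 and Cldn23 at lengths of 1259 to 1848 bases (Cldn4 and Cldn23 are below 0 with the offset).

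The lines differed from each other in Cldn2 and Cldn6, and with all 6 libraries Cldn15 was called in T118 against T91 only. Line and passage cannot be told apart, since each line had its own passage. T91 alone had a female donor, so its contrasts with the other lines also involve donor sex. That of T118 against T113, both from male donors, does not. Cldn2 lies on chromosome X, and it was called in T118 against T113 but not in T113 against T91. The part of donor sex was not tested. Any difference between the 3 lines passed edgeR's test for 2 of 8 claudins, Cldn2 (adjusted p of 0.00385) and Cldn6 (0.00165), where 14% of all genes passed. The count was 6 without the T91 Scrib library, and 4 without the T91 Renilla or the T118 Renilla library. Mean CPM of Cldn6 was 60.3 (T91), 18.3 (T113) and 21.9 (T118), and that of Cldn2 was 282, 244 and 133 in the same order. The high Cldn6 of T91 and the low Cldn2 of T118 held with either hairpin.

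In T113 against T91, 1 of 8 claudins was called, Cldn6 with a log2 fold change of -1.71 (standard error 0.15), where 6.06% of all genes were called. Cldn4 was added without either T91 library, and Cldn15 without either T118 library. T118 against T91 gave 3 of 8, where 11% of all genes were called. These were Cldn2 at -1.09 (0.11), Cldn6 at -1.49 (0.15) and Cldn15 at 2.37 (0.53), although Cldn15 was not called there without the T91 Renilla library, without the T118 Renilla library or without the hairpin term. T118 against T113 gave 1 of 8, Cldn2 at -0.88 (0.11), where 10.3% of all genes were called. Cldn2 lost this call without either T113 library, and other claudins were added without either T91 or either T118 library. For the fits with 1 library left out the share over all genes is not given, so these changes say nothing particular to claudins. The dominant Cldn3 and Cldn7 were not called between any pair of lines with all 6 libraries, with log2 differences from -0.13 to 0.26.

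Outside the 10, 24 further claudin symbols were in the tables, of which 13 had 0 counts in all libraries and 9 were seen at no more than 6 counts in any library. The remaining 2, Cldn8 and Cldn9, passed the filter. Cldn8, a claudin of distal nephron and colon known as a cation barrier and a partner of claudin 4, had 8.19, 12.2 and 1.61 CPM in the Scrib libraries of T91, T113 and T118, against 8.98, 14.4 and 1.70 CPM in the Renilla libraries. The T118 libraries held far less of it than the others, and T118 against T91 gave a log2 fold change of -2.37 (standard error 0.20). Cldn9, the close relative and neighbour of Cldn6, had 1.22, 1.20 and 4.20 CPM in the Scrib libraries and 1.31, 0.834 and 3.07 CPM in the Renilla libraries of the same lines. Neither was called for the hairpin, with log2 fold changes of -0.16 (standard error 0.16) and 0.30 (0.27).

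Other genes of the tight junction were examined beside the claudins. Of 18 tight junction partners 16 passed the filter, 12 with a log2 fold change below 0 and 4 above, 0 were called, and their median was -0.11. Cxadr, an adhesion receptor of the junction, had a log2 fold change of -0.31 (95% interval -0.56 to -0.07) and an unadjusted p of 0.0208 by edgeR's test. Amotl2, a scaffold of the angiomotin family, had one of 0.48 (0.02 to 0.93) with an unadjusted p of 0.0427, and its ratio was -0.09 (T91), 0.89 (T113) and 0.64 (T118). For Ocln, which encodes the strand protein occludin, the log2 fold change was -0.19 (-0.44 to 0.06), and for the Pals1 scaffold gene Mpp5 it was -0.15 (-0.37 to 0.07).

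EpCAM binds claudin 7 and keeps it from degradation, and the protease matriptase (St14) with its inhibitors (Spint1, Spint2) sets how much EpCAM is cleaved. All 4 genes of this list described here passed the filter, 3 below 0 and 1 above, and 0 were called or had an unadjusted p under 0.05 by edgeR's test. Epcam had 510 ± 76.0 CPM with the Scrib hairpin and 571 ± 40.2 CPM with the Renilla hairpin (SD, n = 3 each), and its log2 ratio was 0.13 (T91), -0.25 (T113) and -0.39 (T118). The log2 fold change was -0.09 (95% interval -0.42 to 0.24) for Spint2, -0.02 (-0.27 to 0.23) for Spint1 and 0.02 (-0.20 to 0.24) for St14.

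**Figure D5:**
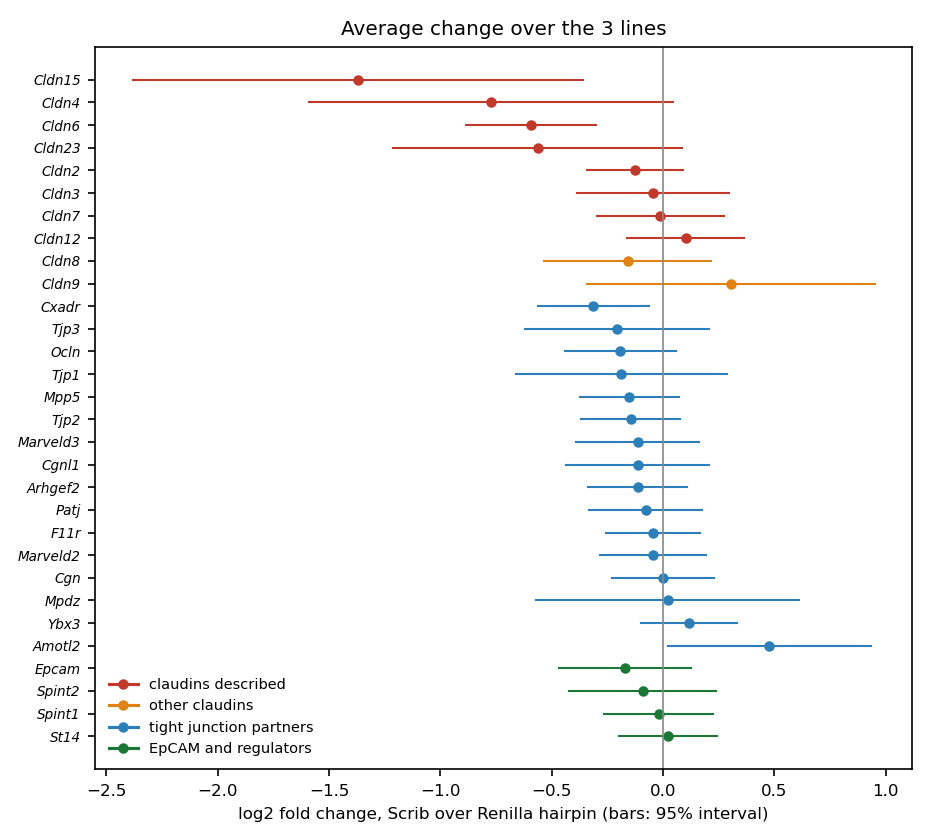
Log2 fold change of Scrib over Renilla hairpin from the fit with a line term (points) with 95% intervals (bars), for the 8 claudins, the 2 other claudins, 16 tight junction partners and 4 genes around EpCAM. Cldn15, Cldn4, Cldn6 and Cldn23 lie farthest to the left, at -1.37, -0.77, -0.59 and -0.56, and Amotl2 farthest to the right, at 0.48.

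Of 12 transcription factors reported to act on claudin genes 8 passed the filter, 3 below 0 and 5 above, and 0 were called. Hnf4a, a factor of foregut and gut epithelium, had a log2 fold change of -0.30 (95% interval -0.58 to -0.02) with an unadjusted p of 0.0397 by edgeR's test and ratios of -0.09 (T91), -0.24 (T113) and -0.57 (T118). The grainyhead factor genes Grhl1 and Grhl3 had 0.21 (-0.09 to 0.51) and -0.15 (-0.60 to 0.31). Snai1, a repressor of epithelial genes, was scarce, at 0.438 ± 0.0681 CPM with the Scrib hairpin and 0.349 ± 0.072 CPM with the Renilla hairpin (SD, n = 3 each), and 4 of the 12, the repressor genes Snai2, Zeb1, Zeb2 and Twist1, did not pass the filter.

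Genes most alike to Cldn6 over the 6 libraries, by Pearson correlation of log2 CPM among 9966 protein-coding genes, were Itprip (0.994), Hebp2 (0.993) and Dpm3 (0.991). For Cldn15, which had the widest range between line means, they were Naip5 (0.995), Golm1 (0.992) and Aplp2 (0.991). Such values rest on 6 libraries from 3 lines and were the highest of many compared. Hebp2, for example, had 6.34, 2.60 and 2.60 CPM in the Scrib libraries of T91, T113 and T118 and 7.70, 3.66 and 4.12 CPM in the Renilla libraries, with T91 highest and each Scrib library the lower of its pair, as for Cldn6.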

How the data were processed

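Messenger RNA was sequenced from 6 organoid cultures, 3 lines with a Scrib or a Renilla hairpin each. Hairpins were delivered by virus according to the treatment label and by plasmid transfection according to the series' design. The values are estimated counts of each Ensembl gene as deposited by the authors, with no depth scaling. Salmon 1.4.0, DESeq 2 and GRCm38 are named in the submitters' processing notes. No source used here states the strand setting or how transcripts were summed. Salmon shares reads between similar transcripts, so related genes can trade counts.

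Estimated counts were rounded and tested on the whole table in R 4.3.3 with edgeR 4.0.16 (filterByExpr on the hairpin groups, minimum count 10, TMM scaling, robust quasi-likelihood F-test, two-sided, Benjamini-Hochberg adjustment over 14169 genes, threshold 0.05) with terms for line and hairpin. The design left 2 residual degrees of freedom, the prior added 4.43, and the common dispersion gave a biological coefficient of variation of 15.5%. The line was a term because both libraries of a pair come from 1 tumour line, and their deviations from the group means correlated at 0.621 (T91), 0.666 (T113) and 0.662 (T118). Within a line, ratios carry exact Clopper-Pearson intervals at 95%, which cover counting error only, and a count of 0 was given the limit of 3 counts. Lengths and positions came from GENCODE vM21 for GRCm38, and upstream windows from RefSeq for GRCm38.p6. The fits were checked on simulated counts. Alternatives included DESeq2 1.42.0 and limma 3.58.1 (voom), and the length and GC offsets were added after seeing the data.

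The 10 claudins and all lists were chosen with earlier results of these data known. All claudins were named, with other claudins past the filter, up to 4 genes per list by p (1 listed gene is not reported here), and the 3 genes most correlated (average log2 CPM of at least 2) with the claudin of smallest p and with that of widest range between lines.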

Additional observations from a re-analysis of the deposited data

Results flagged for a closer look

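Within-line ratios of the sealing claudins Cldn3, Cldn4 and Cldn7 had opposite signs between lines, with counting intervals that left out 0 in every line. The log2 ratio of Scrib to Renilla hairpin for Cldn3 was 0.33 (T91), -0.12 (T113) and -0.35 (T118). For Cldn4 it was 0.15 (T91), -1.10 (T113) and -1.37 (T118). For Cldn7 it was 0.29 (T91), -0.15 (T113) and -0.17 (T118). The difference between lines was not tested, as each value compares 1 library with 1 library. In T91, ratios also moved with transcript length across genes, and with the length and GC offset the T91 value was 0.07 for Cldn3, -0.01 for Cldn4 and 0.06 for Cldn7. The fibroblast markers were highest in the T91 Scrib library, with Col1a1 at 3.53 CPM against 0.502 CPM in the T91 Renilla library, and their part in these ratios was not tested.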

How the results depend on the processing

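Called claudins for the hairpin numbered 0 in the fit with the line as a block and 0 without that block. They also numbered 0 with DESeq2 size factors, the stricter filter, DESeq2, limma-voom, non-robust dispersions and either offset over all lines. A threshold of 0.1 in the edgeR fit with the block gave 0 as well. The count was 1 without the low-count filter (Cldn6) and 1 with the length and GC offset without T91 (Cldn4), and it ran from 0 to 1 with 1 line left out. Over 102 values of single claudins under these settings, 95 kept their direction and side of the threshold, 3 passed it and 4 turned. With 1 line left out, log2 fold changes ran from -0.23 to 0.10 for Cldn3 (above 0 without T118), from -0.16 to 0.067 for Cldn7 (0.067 without T118, 0.059 without T113) and from -0.0089 (without T118) to 0.19 for Cldn12, and the cause was not tested. Between lines, the count without the low-count filter was 4 for any difference, 2 for T113 against T91 and 2 for T118 against T113. With 1 library left out, which leaves 1 library for its line, the counts moved in every comparison between lines. The share over all genes is not given for these fits or for the line tests without the filter. Of the 10 ranks by level per length, 6 held without length correction and 8 with the longest coding transcript as the length. From 6 to 10 held with 1 line left out. Over all genes, the hairpin test called 63 with DESeq2, 8 with limma-voom, 64 without the filter, 150 without T91, 11 without T113 and 35 without T118, against 1. With 1 library per line and hairpin, no ratio within a line has a replicate, and Cldn15, Cldn23, Cldn18 and Cldn1 rest on few counts.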
